A study of Mus musculus with 14 samples.

Results

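Cytosolic ribosomal protein genes were followed across mammary tumors, tumor-bearing glands and wild-type glands of mice. The members were the probe sets whose platform symbol was Rpl or Rps with a number and at most 1 letter, or Rplp0, Rplp1, Rplp2 or Rpsa. Ribosomal S6 kinases, pseudogene symbols ending in ps and probe sets assigned to several genes were left out. This gave 47 probe sets of 33 genes among 12488 on the array, and 33 probe sets of 25 genes passed the filter on dim signals, out of 8616 that did. The tested genes encode 12 proteins of the large (60S) and 13 of the small (40S) subunit. A further 38 probe sets name a ribosomal protein among several genes, and 29 ribosomal protein genes, Rplp1, Rpl5 and Rps6 among them, are represented on those alone and are not members.

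MMTV-neu mice carry the neu oncogene under a viral promoter, that of mouse mammary tumor virus, which is active in mammary epithelium. The arrays held 5 MMTV-neu mammary tumors (Tumor 22, 24, 26, 50 and 52), 2 MMTV-neu tumors of a second set (Tumor_setB 80 and 81), 4 preneoplastic MMTV-neu glands taken next to a tumor (AdjacentNeu 23, 25, 49 and 51) and 3 wild-type glands described as age-matched (AMWT 40, 41 and 42). Each AMWT sample was RNA pooled from 5 mice: AMWT 40 at 31 weeks of age with 87.5% FVB and 12.5% CF-1 background, and AMWT 41 and 42 at 41 weeks with 97% FVB and 3% CF-1. The labels give no age or strain for the tumor-bearing mice and do not say whether a tumor and an adjacent gland came from 1 mouse, so p-values measure the spread between these samples alone. The pools of AMWT average over mice, while each tumor and adjacent array is 1 tissue sample as far as the labels say.

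Ribosomal proteins assemble with ribosomal RNA into the 40S and 60S subunits of the ribosome, the machine that translates messenger RNA. The small subunit decodes the message, the large subunit joins the amino acids, and the stalk of the large subunit recruits elongation factors. Transcripts of most ribosomal proteins begin with a run of pyrimidines (a TOP motif) through which mTOR signaling governs their translation, so that protein output can change while the mRNA level does not. Growing tumors depend on ribosome production, and MMTV-neu tumors are epithelial, whereas the wild-type gland consists largely of fat and stroma. In such bulk tissue, fewer cells of a type and less RNA per cell cannot be told apart.

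The 33 tested member probe sets were divided by brightness at a chosen threshold, with no gap in the values there. Above it, 15 probe sets of 14 genes had a mean log2 intensity above 15 (intensity 32768) over the 14 arrays, with single values from 22850 to 166223, and 18 were dimmer. Just inside lay Rpl7a with a mean of 15.01, and just outside Rpl10a with 14.98 and Rps19 with 14.86. Bright members varied less than dimmer ones: the median SD of log2 values over all arrays was 0.32, against 0.58 in the dimmer members and 0.51 over all probe sets tested. The SD of other probe sets of that brightness was not taken, so a trait of the members and one of bright probe sets cannot be told apart. The 14 untested probe sets were dim on all arrays, from 8.1 to 550.1. Among them, those of Rps27l, a paralog of Rps27, and 1 of the 3 untested for Rps4x read under 101.4, the floor set at the 20th percentile of the pooled values, on all 14 arrays, and 8 genes (such as Rpl32, Rpl38, Rps14 and Rps20) had no tested probe set. Levels of different probe sets are not set against each other here, since each has its own probes.

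Arrays came from 5 manufacturing lots named in the labels. Tumor 22, 24 and 26 and AdjacentNeu 23 and 25 were of lot 2001815, Tumor 50 and 52 of lot 2004097, AdjacentNeu 49 and 51 and AMWT 40 of lot 2004907, AMWT 41 and 42 of lot 2003877, and both set B tumors of lot 2006609. No lot held a tumor and an AMWT pool, and set B had a lot of its own, so lot and group cannot be told apart for set B. Marker intensities of cell types also differed between the groups. All 10 measured white adipocyte markers (of 12 listed) were lower in Tumor than in AMWT, with summed intensities of 4878 to 10773 in Tumor, 6261 to 6561 in Tumor_setB, 129599 to 222471 in AdjacentNeu and 246846 to 341930 in AMWT. Of 11 measured luminal epithelial markers (of 12), 8 were higher in Tumor, with sums of 85235 to 135763 in Tumor, 80844 to 110556 in Tumor_setB, 54297 to 82424 in AdjacentNeu and 41582 to 47589 in AMWT. Other markers were called lower in Tumor than in AMWT as well: 9 of 9 of fibroblasts, 10 of 12 of skeletal muscle (1 was higher), 7 of 9 of endothelium and 5 of 6 measured of basal epithelium (of 9). Of 7 measured macrophage markers (of 8), 1 was called higher and 2 lower, and of 6 measured lymphocyte markers (of 15) none was called. Fibroblast sums were 12937 to 35965 in Tumor, 15748 to 19492 in Tumor_setB, 100948 to 184701 in AdjacentNeu and 124381 to 153712 in AMWT. Skeletal muscle sums were 5705 to 14766 in Tumor, 5029 to 6207 in Tumor_setB, 5792 to 51881 in AdjacentNeu and 71068 to 132956 in AMWT. The 3′ to 5′ difference of the actin control, a sign of RNA integrity, was 0.08 to 0.76 (log2) in Tumor, 0.14 to 0.21 in Tumor_setB, 0.38 to 1.52 in AdjacentNeu and 0.90 to 1.51 in AMWT. That of the Gapdh control was -0.25 to 0.43 in Tumor, -0.50 to -0.28 in Tumor_setB and -0.27 to 0.27 in AdjacentNeu. In AMWT 40, 41 and 42 it was 0.17, 0.11 and 1.48. The part of these differences in the results on ribosomal proteins was not tested.

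**Figure D1:**
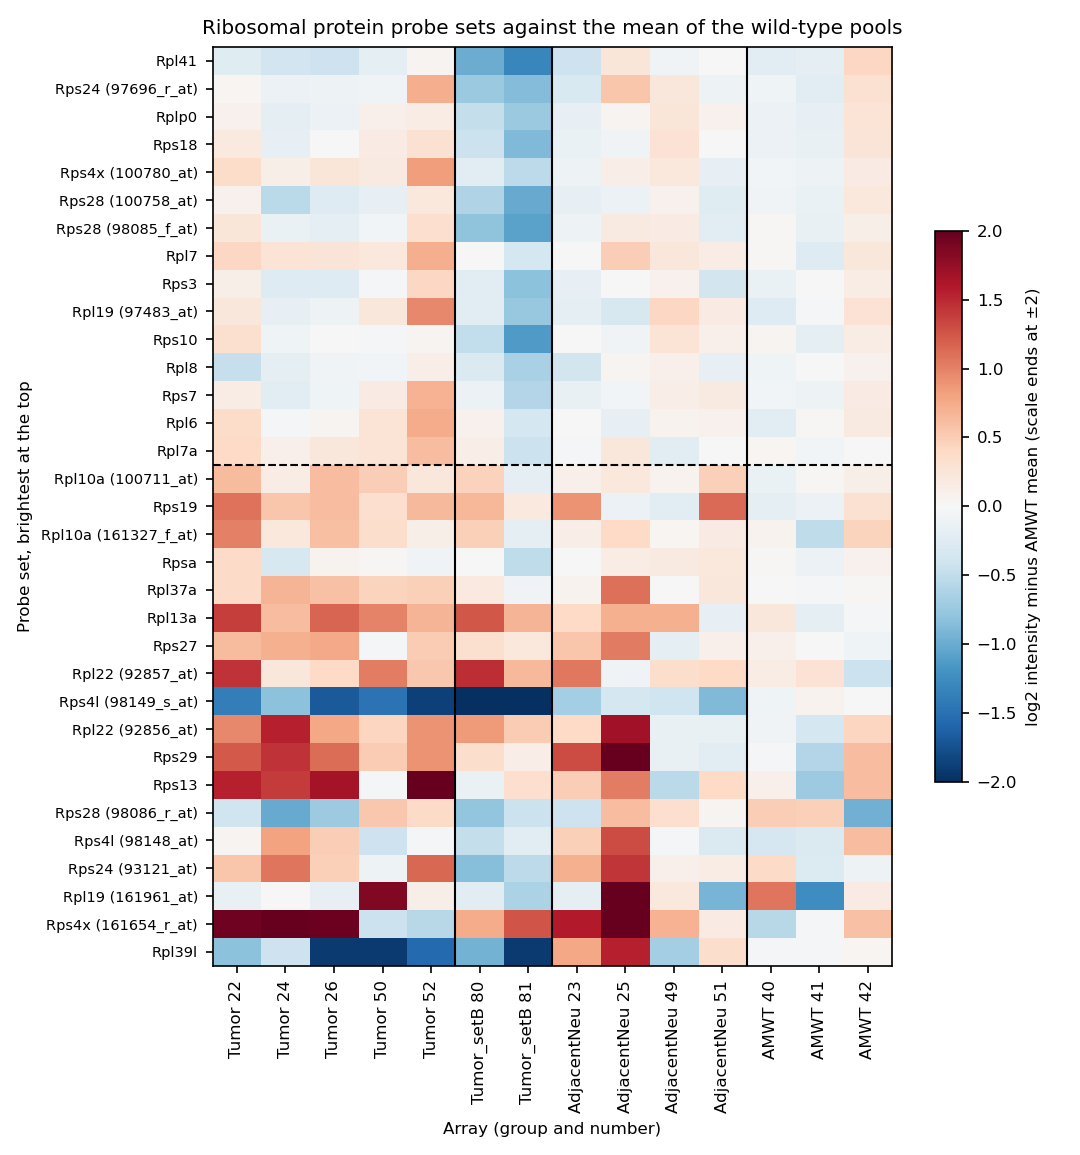
Log2 intensity of the 33 tested ribosomal protein probe sets (rows, brightest at the top, the dashed line at a mean log2 intensity of 15) on 14 arrays (columns), minus the mean of the 3 AMWT pools. Bright rows stay near the AMWT mean in tumors and adjacent glands and are lower in both set B tumors at the deposited scaling, and Rps4l (98149_s_at) is low in all 7 tumors.

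The first question was whether tumors differ from wild-type gland. Few ribosomal protein mRNAs passed the test in Tumor against AMWT: of 33 probe sets, 2 were called higher (Rpl13a and Rps13) and 1 lower (Rps4l) in limma at an adjusted p under 0.05. Over all 8616 probe sets 29.9% were called, 15.8% higher and 14.1% lower, so the share called was smaller among the members. With each array scaled to a common median the split was 2 higher and 2 lower. The median log2 difference of the members (Tumor minus AMWT) was 0.28, against 0.16 over all probe sets tested, and 26 of 33 were positive. The 15 bright members had a median of 0.09 (11 positive), and the 18 dimmer ones 0.51 (15 positive). Per array, the median deviation of the dimmer members from the mean of 14 arrays was 0.18 to 0.39 on Tumor 22, 24 and 26. On AdjacentNeu 23 and 25, of the same lot 2001815, it was 0.10 and 0.73. Off that lot it was -0.09 and 0.04 on Tumor 50 and 52 and -0.18 and -0.14 on AdjacentNeu 49 and 51. It was -0.47 to -0.11 in AMWT, which had no pool of that lot, and the part of lot was not tested. Of the 33 members 10 had an unadjusted p under 0.05, all of them dimmer, against 3509 of all 8616 probe sets. In 5 members all tumors lay above all AMWT pools and in 2 all lay below, while 18.7% and 16.1% of all probe sets did so. Large-subunit probe sets had a median difference of 0.33 and small-subunit probe sets 0.12.

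Rpl13a, a 60S protein that in human macrophages also leaves the ribosome to silence inflammatory mRNAs, was the member called higher in both tumor sets, which were compared with the same AMWT pools. Its intensities were 11161, 6583, 9621, 8500 and 6813 in Tumor 22, 24, 26, 50 and 52, 10160 and 6813 in Tumor_setB 80 and 81, 5611, 6982, 6959 and 3802 in AdjacentNeu 23, 25, 49 and 51, and 5020, 3734 and 4162 in AMWT 40, 41 and 42. All 7 tumors were above all AMWT pools, and the adjacent glands overlapped both. In Tumor it was 1.96-fold the AMWT level (log2 difference 0.97 ± 0.24 SE, n = 5 and 3, limma adjusted p = 0.00568), and in Tumor_setB 1.95-fold (0.96 ± 0.30, n = 2 and 3, adjusted p = 0.0270). With lot as a fixed block the Tumor difference was 0.54 (adjusted p = 0.676) and was not called. Within lots 2004097 and 2004907 read as one it was 0.60 (adjusted p = 0.411), also not called. Both values rest on AMWT 40 as the single wild-type pool, taken to vary like the other groups, since the lot of AMWT 41 and 42 holds no other group. The set B difference was 0.67 without Tumor_setB 80 (adjusted p = 0.261), and its call was also lost without AMWT 41 or 42 and with lot as a random block (adjusted p = 0.0586).

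Rps13, a protein of the 40S platform, was called higher in Tumor on a dim probe set (93027_r_at). The gene had no other member probe set to set beside it, and the alternative with suffixes _at or _i_at alone leaves this probe set out. Its intensities were 718, 644, 779, 240 and 1187 in Tumor 22, 24, 26, 50 and 52, 224 and 308 in Tumor_setB 80 and 81, 346, 497, 169 and 324 in AdjacentNeu 23, 25, 49 and 51, and 264, 148 and 377 in AMWT 40, 41 and 42. Tumors 22, 24, 26 and 52 stood above all other samples, whereas Tumor 50 and both set B tumors lay within the AMWT range. The log2 difference between Tumor and AMWT was 1.37 ± 0.49 (adjusted p = 0.0461). It lost its call in 11 of 16 alternatives, among them leaving out Tumor 22, 24, 26 or 52 or AMWT 40 or 41, with adjusted p up to 0.849.

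The largest difference among the members was a fall, in Rps4l, a paralog of the X-linked 40S protein gene Rps4x. On probe set 98149_s_at its intensities were 534.5, 788.9, 435.1, 499.1 and 383.9 in Tumor 22, 24, 26, 50 and 52, 239.5 and 252.8 in Tumor_setB 80 and 81, 869.1, 1092, 1061 and 753.9 in AdjacentNeu 23, 25, 49 and 51, and 1309, 1472 and 1407 in AMWT 40, 41 and 42. The set B tumors were lowest, the first tumors next, the adjacent glands higher except that AdjacentNeu 51 lay below Tumor 24, and the AMWT pools highest with no overlap. Rps4l was 2.72-fold lower in Tumor than in AMWT (log2 difference -1.45 ± 0.26, adjusted p = 0.000626) and 5.67-fold lower in Tumor_setB (-2.50 ± 0.33, adjusted p = 6.34e-05). With lot as a fixed block the Tumor difference was -1.33 (adjusted p = 0.221), and within lots 2004097 and 2004907 read as one it was -1.58 (adjusted p = 0.0352), both again with AMWT 40 as the single wild-type pool.

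Of the 2 Rps4l probe sets, 98149_s_at, a design whose probes may match several related transcripts, showed this fall. The other, 98148_at, had 325.7, 545.8, 438.2, 233.2 and 306.0 in Tumor 22, 24, 26, 50 and 52, 223.4 and 265.5 in Tumor_setB, 434.7, 772.1, 306.3 and 256.1 in AdjacentNeu 23, 25, 49 and 51, and 247.2, 255.9 and 481.2 in AMWT. Its groups overlapped, and Tumor differed from AMWT by 0.18 ± 0.42 (adjusted p = 0.773). The 2 probe sets thus gave differences of opposite sign in this comparison, and which of them reads Rps4l was not tested. Marker sums of adipocytes, skeletal muscle, fibroblasts, endothelium and basal epithelium were likewise lower in all 7 tumors than in the AMWT pools. Endothelium sums were 6405 to 9181 in Tumor, 5813 to 7574 in Tumor_setB, 12292 to 26222 in AdjacentNeu and 24718 to 30314 in AMWT. Basal epithelium sums were 3851 to 6793 in Tumor, 5235 to 7035 in Tumor_setB, 15196 to 31291 in AdjacentNeu and 22784 to 25777 in AMWT. The part of these cell types in the Rps4l difference was not tested. Rps4x itself, on its bright probe set, had 76886, 64463, 70270, 67270 and 105905 in Tumor 22, 24, 26, 50 and 52, 50655 and 41294 in Tumor_setB, 55251, 65088, 69137 and 52977 in AdjacentNeu, and 57234, 55485 and 66514 in AMWT, a Tumor difference of 0.35 ± 0.20 (adjusted p = 0.204).

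**Figure D2:**
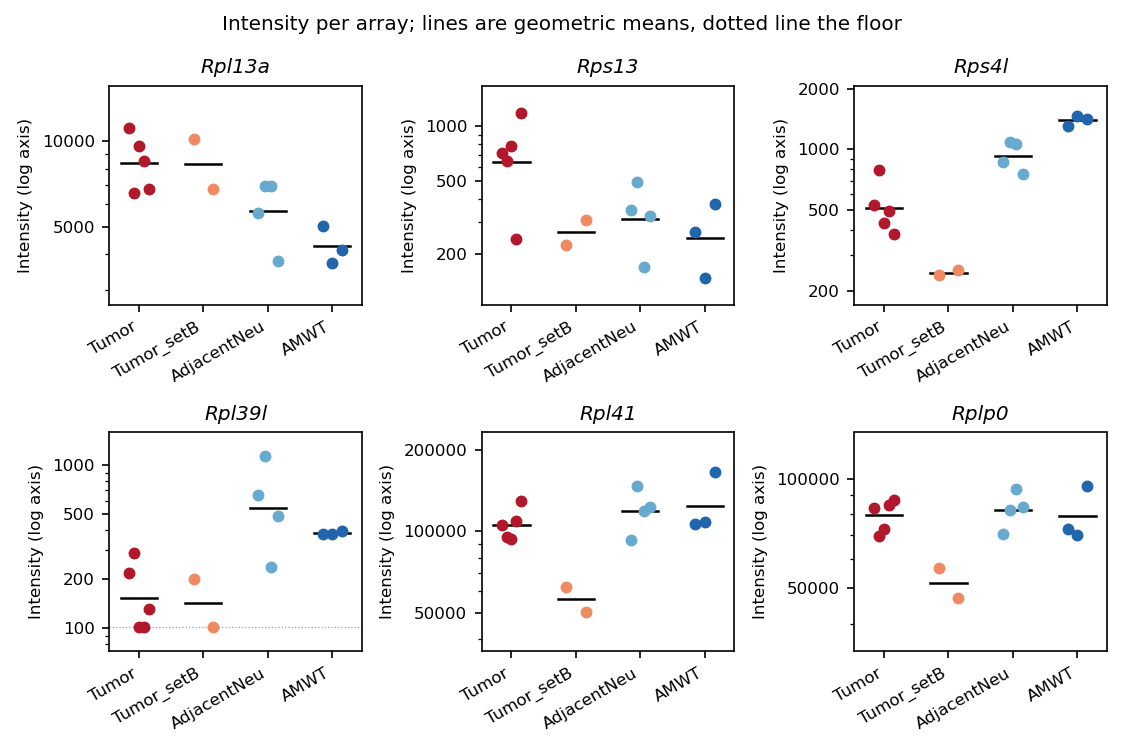
Intensity (log axis) of 6 ribosomal protein probe sets on each array, by group, with the geometric mean of each group as a line and the floor as a dotted line. Rpl13a has all 7 tumors above the AMWT pools, Rps4l (98149_s_at) and Rpl39l have all tumors below them, and Rpl41 and Rplp0 are lower in the set B tumors than in the other arrays at the deposited scaling.

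Several members lay near the AMWT level with narrow intervals. Rplp0, the base of the stalk that carries the acidic P proteins, had 83333, 69607, 72904, 84917 and 87449 in Tumor 22, 24, 26, 50 and 52, against 72867, 70191 and 95714 in AMWT 40, 41 and 42. The groups overlapped, and the log2 difference was 0.01 with a 95% interval of -0.38 to 0.40. For Rpsa, a 40S protein also known as the laminin receptor precursor, it was 0.02 (-0.36 to 0.39), with 12299 to 20175 in Tumor and 14293 to 16441 in AMWT. Rps10, a 40S protein at the mRNA entry side, differed by 0.05 (-0.35 to 0.45) and Rps18, of the 40S head, by 0.10 (-0.31 to 0.51). Among 60S members, Rpl8, near the peptidyl transferase center, differed by -0.13 (-0.52 to 0.26) and Rpl41, a very short basic peptide, by -0.23 (-0.70 to 0.23). For these 6 genes, differences within the intervals were not detectable with this number of arrays.

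Besides Rpl13a, the members with all tumors above all AMWT pools did not pass the test. Such separation was seen in 5 of 33 members, against 18.7% of all probe sets. Rpl37a, a zinc-binding 60S protein, had 16501, 20173, 18988, 17099 and 17549 in Tumor 22, 24, 26, 50 and 52, against 12658, 12366 and 12783 in AMWT 40, 41 and 42, a difference of 0.52 ± 0.21 (adjusted p = 0.0806). Rps19, the 40S protein most often mutated in human Diamond-Blackfan anemia, had 28167 to 47445 in Tumor and 19381 to 27534 in AMWT (0.65 ± 0.29, adjusted p = 0.105). Rpl10a, of the L1 stalk, had 30461 to 42553 in Tumor and 24998 to 29794 in AMWT (0.42 ± 0.19, adjusted p = 0.110). Rpl7a of the 60S subunit had 33173 to 47582 in Tumor and 29781 to 31874 in AMWT (0.33 ± 0.18, adjusted p = 0.184). In Rps19, Rpl10a and Rpl7a the lowest tumor and the highest pool lay close together. On the second Rpl10a probe set the groups overlapped (0.46 ± 0.24, adjusted p = 0.169).

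Rpl22, a 60S protein that mouse T cells need for their development, and Rps29, a zinc-binding 40S protein, were higher on average with overlapping groups. On its brighter probe set Rpl22 had 5089, 2183, 2473, 3806 and 2720 in Tumor 22, 24, 26, 50 and 52, against 2071, 2284 and 1387 in AMWT 40, 41 and 42 (0.73 ± 0.31, adjusted p = 0.0892). Tumor 24 lay below AMWT 41. Rps29 had 957.8, 1115, 891.8, 584.3 and 765.1 in Tumor 22, 24, 26, 50 and 52, against 400.7, 273.8 and 632.4 in AMWT 40, 41 and 42 (1.04 ± 0.46, adjusted p = 0.0999). Tumor 50 was the one tumor below AMWT 42. On the arrays of lot 2001815 (Tumor 22, 24 and 26, AdjacentNeu 23 and 25) Rps29 read 891.8 to 1641. On all other arrays it read 273.8 to 765.1. No AMWT pool was of that lot, and the part of lot in the Rps29 difference was not tested.

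**Figure D3:**
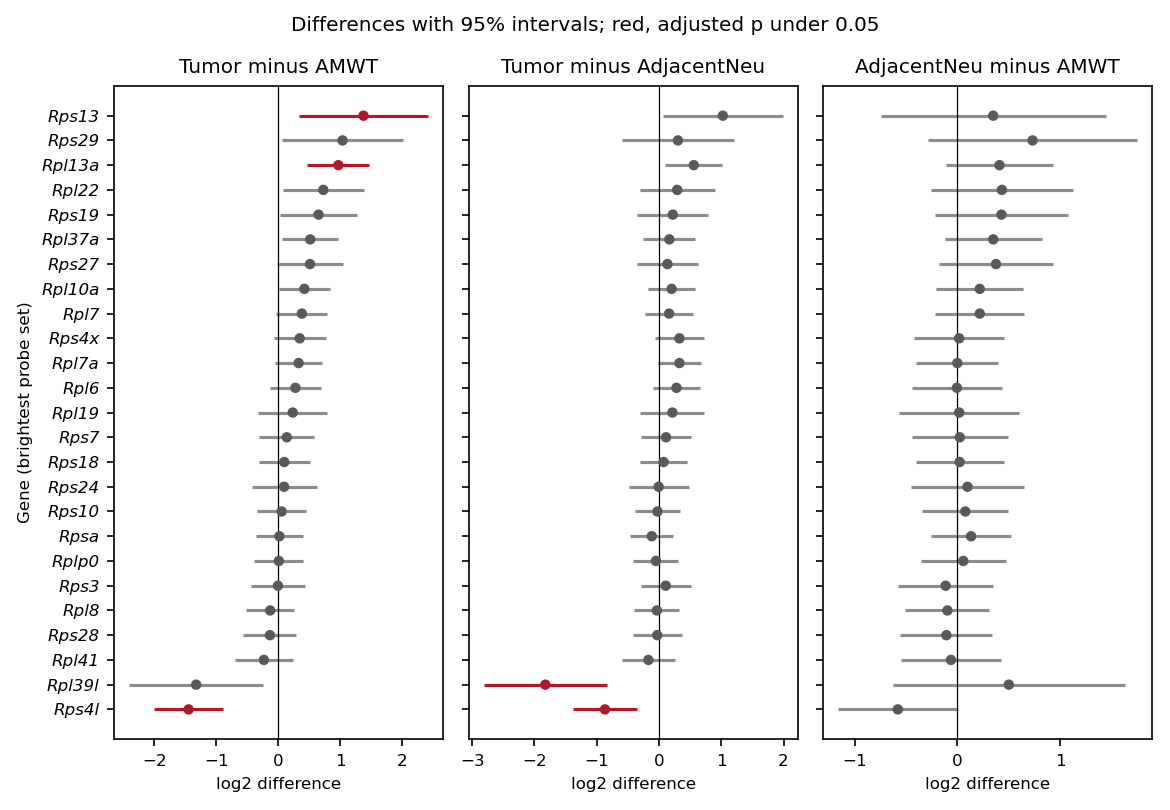
Log2 differences with 95% intervals for the 25 tested ribosomal protein genes (brightest probe set of each), for Tumor minus AMWT, Tumor minus AdjacentNeu and AdjacentNeu minus AMWT, each panel on its own axis. Red marks an adjusted p under 0.05: Rps13, Rpl13a and Rps4l on the left, Rpl39l and Rps4l in the middle and none on the right.

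The second question was whether the preneoplastic gland next to a tumor already differs from wild-type gland. No member was called in AdjacentNeu against AMWT by limma, where 1.17% of all probe sets were called, 0.720% higher and 0.453% lower. None of the 33 had an unadjusted p under 0.05, against 1273 of all 8616 probe sets. The median difference of the members was 0.15, against 0.07 over all probe sets, and it was -0.02 with each array scaled to a common median. Rps4l (98149_s_at) had all adjacent glands below all AMWT pools (-0.58 ± 0.27, adjusted p = 0.341), as did 6.82% of all probe sets, and no member had all adjacent glands above, against 7.60%. Rpl13a differed by 0.41 ± 0.25 (adjusted p = 0.461), Rpl37a by 0.35 ± 0.22 (adjusted p = 0.488) and Rps29 by 0.73 ± 0.48 (adjusted p = 0.499). In this comparison 4 of 12 skeletal muscle markers and 1 of 10 adipocyte markers were called lower, and 2 of 11 luminal markers higher. For Rplp0 the difference was 0.06 (95% interval -0.35 to 0.47) and for Rpsa 0.13 (-0.26 to 0.52). AdjacentNeu 25 had the highest value of the adjacent glands for 19 of the 33 probe sets, such as 1641 against 350.9 to 1018 for Rps29 and 26992 against 12547 to 14772 for Rpl37a. For Rps29 the 1018 was that of AdjacentNeu 23, of the same lot. AdjacentNeu 49 and 51, of another lot, read 369.0 and 350.9. The median intensity of AdjacentNeu 25 over all probe sets was also the highest of the adjacent glands, at 784.1 against 609.3 to 713. The same count over all probe sets was not taken. Without AdjacentNeu 25 the median of the members was 0.06, and no member was called.

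Tumors were then set against adjacent gland, which shares the MMTV-neu background. No member was called higher and 2 were called lower, Rpl39l and Rps4l, where 5.34% of all probe sets were higher and 9.04% lower. The median difference was 0.11, against 0.07 over all probe sets. Of the 33 members 4 had an unadjusted p under 0.05, against 2261 of all 8616 probe sets. No member had all tumors above or all below all adjacent glands, against 4.96% and 7.85% of all probe sets. Rpl39l, a paralog of Rpl39 that is incorporated into ribosomes of male germ cells in mice, was dim. Its intensities were 218.1, 289.4, 51.3, 90.5 and 130.6 in Tumor 22, 24, 26, 50 and 52, 199.9 and 101.4 in Tumor_setB 80 and 81, 658.0, 1132, 238.6 and 489.3 in AdjacentNeu 23, 25, 49 and 51, and 377.1, 379.7 and 395.2 in AMWT 40, 41 and 42. Tumors 26 and 50 and Tumor_setB 81 were below or at the floor, Tumor 24 exceeded AdjacentNeu 49, and all tumors lay below all AMWT pools. Rpl39l was 3.54-fold lower in Tumor than in AdjacentNeu (log2 difference -1.82 ± 0.47, n = 5 and 4, adjusted p = 0.0144), with floored values taken as measured. It kept its call in all 17 alternatives, with adjusted p up to 0.0498, including lot 2001815 alone (-2.22, adjusted p = 0.0308). The fixed lot block is not a separate check from lot 2001815 alone, since no other lot held both groups. Against AMWT Rpl39l differed by -1.32 ± 0.51 (adjusted p = 0.0612) and was not called. Its close relative Rpl39 had no tested probe set.

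Rps4l on 98149_s_at was 1.82-fold lower in Tumor than in AdjacentNeu (-0.87 ± 0.24, adjusted p = 0.0229). The call was lost without Tumor 26 or 52 or AdjacentNeu 25 or 49 (adjusted p 0.0527 to 0.0629), and within lot 2001815 the difference was -0.78 (adjusted p = 0.194). Rpl13a differed by 0.56 ± 0.22 (adjusted p = 0.103) and Rps13 by 1.03 ± 0.45 (adjusted p = 0.159), both uncalled. Markers called lower in Tumor than in AdjacentNeu were all 10 measured of adipocytes, 9 of 9 of fibroblasts, 7 of 9 of endothelium, 5 of 6 of basal epithelium, 1 of 12 of skeletal muscle and 2 of 6 measured of lymphocytes (of 15), and 5 of 11 luminal markers were higher. The part of these cell types in the ribosomal protein differences was not tested.

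The set B tumors were described in the labels as a second group used to check changes seen in the first. In Tumor_setB against AMWT at the deposited scaling, 4 bright members (Rpl41, 2 of Rps28 and Rps10) and 1 dimmer member (Rps4l) were called lower. This made 5 of 33 probe sets lower, with 1 higher (Rpl13a), where 12.0% of all probe sets were lower and 11.2% higher. The median difference was -0.36, against 0.05 over all probe sets, but 0.03 after quantile normalization, when 1 member was called lower (Rps4l) and 1 higher. With each array scaled to a common median, 3 were lower and 1 higher, and without Tumor_setB 81 only Rps4l was lower. Without AMWT 40 or 42, 3 were lower. All set B values were below all AMWT values in 14 members and above in 5, against 27.5% and 29.9% of all probe sets.

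Rpl41 had 62224 and 50406 in Tumor_setB 80 and 81, against 106684, 108520 and 166223 in AMWT 40, 41 and 42. It had 93610 to 129884 in the 5 first tumors, so that both set B tumors lay below all 12 other arrays. The difference between Tumor_setB and AMWT was -1.15 ± 0.27 (adjusted p = 0.00659), a 2.22-fold fall. After quantile normalization it was -0.16 (adjusted p = 0.598), and without Tumor_setB 81 it was -0.999 (adjusted p = 0.0789).

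Rps10 had 36414 and 23312 in Tumor_setB 80 and 81, against 52730, 44380 and 56805 in AMWT 40, 41 and 42. The difference was -0.81 ± 0.24 (adjusted p = 0.0204), or -0.53 after quantile normalization (adjusted p = 0.0696) and -0.49 without Tumor_setB 81 (adjusted p = 0.287). Both set B values were below all others, and that of Tumor_setB 81 was the lower. Rps28, a small 40S protein, had 44682 and 33814 in Tumor_setB 80 and 81, against 64675, 61809 and 78152 in AMWT 40, 41 and 42 on 100758_at (-0.80 ± 0.25, adjusted p = 0.0294). A second Rps28 probe set (98085_f_at) gave -0.94 ± 0.24 (adjusted p = 0.00903), and a dim one, which shares the source sequence of the second, gave -0.61 ± 0.56 (adjusted p = 0.487). Without Tumor_setB 81 the first differed by -0.60 (adjusted p = 0.249), and after quantile normalization by -0.23 (adjusted p = 0.402). The calls of Rps10 and of this Rps28 probe set were also lost without AMWT 40 or 42 (adjusted p 0.0554 to 0.104). Counting these, Rps10 lost its call in 5 of 10 alternatives and this Rps28 probe set in 7 of 10.

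Other bright members had differences of the same sign that did not pass the test. Rps18 had 50820 and 37142 in Tumor_setB 80 and 81, against 63581, 62309 and 81947 in AMWT 40, 41 and 42 (-0.66 ± 0.24, adjusted p = 0.0586). Rplp0 had 56794 and 47034 in Tumor_setB 80 and 81 (-0.61 ± 0.23 against AMWT, adjusted p = 0.0692), and Rps24 had 50796 and 46248 on 97696_r_at (-0.80 ± 0.31, adjusted p = 0.0720). In each of these 3 genes both set B tumors were below the other 12 arrays. The Rps24 probe set 97696_r_at shares its source sequence in the platform table with the Rpl7 probe set 97695_s_at, so its gene name is uncertain, and the other Rps24 probe set read 140.9 to 682.2. Rpl22 had a positive difference, with 5196 and 2929 in Tumor_setB on 92857_at, against 1387 to 2284 in AMWT (1.06 ± 0.39, adjusted p = 0.0588).

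Bright probe sets of other genes were set beside the members. The 15 bright members had a median difference of -0.52 (Tumor_setB minus AMWT) with all 15 negative, and the 72 other probe sets above the same intensity had -0.55 with 60 negative and 16 called lower. The 18 dimmer members had a median of 0.12. The highest value on an array was 63654 and 51815 on Tumor_setB 80 and 81, against 93185 to 204436 on the other 12 arrays, although all arrays had been scaled to one trimmed mean. Per array, the median deviation of the bright members was -0.31 and -0.71 on Tumor_setB 80 and 81 and -0.13 to 0.52 on the others, and the other bright probe sets ran beside them at -0.28 and -0.61 against -0.14 to 0.54. The 2 classes differed most on Tumor 22 (0.25 and 0.08), and the difference between them was not tested. Tumor_setB 81 had the lowest value of all 14 arrays for 18 of the 33 members, and the same count over all probe sets was not taken.

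**Figure D4:**
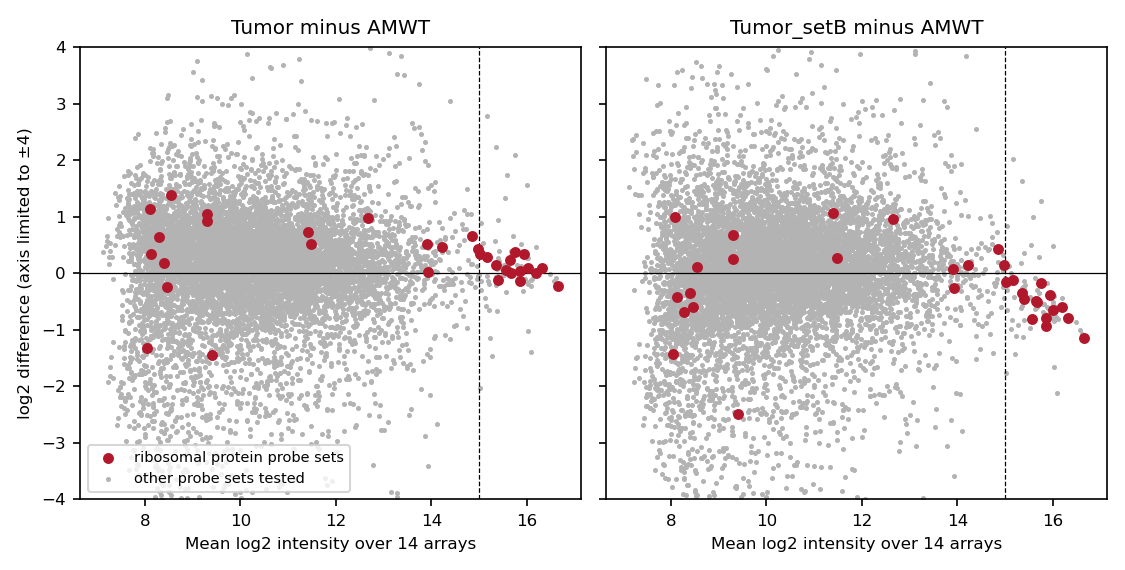
Log2 difference against mean log2 intensity over 14 arrays for 33 ribosomal protein probe sets (red) and the other tested probe sets (grey), for Tumor minus AMWT (left) and Tumor_setB minus AMWT (right). Above a mean of 15 (dashed line) red and grey points lie around 0 on the left and mostly below 0 on the right, where the deposited scaling was used.

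**Figure D5:**
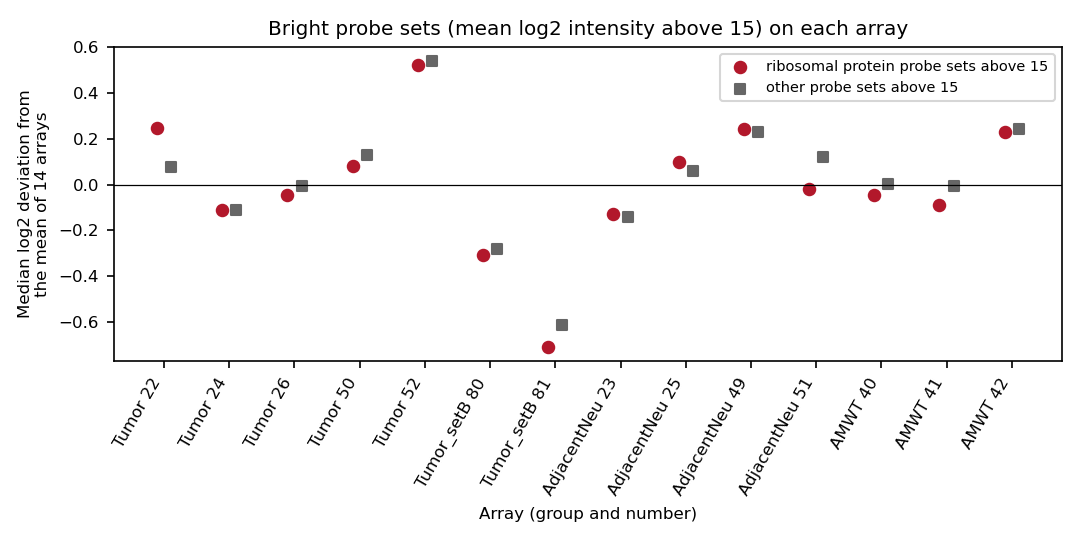
Median log2 deviation from the mean of 14 arrays, per array, for the 15 bright ribosomal protein probe sets (circles) and the 72 other bright probe sets (squares). Both are lowest on Tumor_setB 81 and 80 and highest on Tumor 52.

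Set B was also compared with the first tumors. Neither a member nor any other probe set was called by limma (0%), while 15 of 33 members and 932 of 8616 probe sets had an unadjusted p under 0.05. At the deposited scaling 32 of 33 members were negative, with a median of -0.51 against -0.06 over all probe sets; after quantile normalization the median of the members was -0.09. In 15 members both set B tumors lay below all 5 first tumors, as did 10.7% of all probe sets, and in none did both lie above, against 6.20%. The 15 bright members had a median of -0.67 and the 72 other bright probe sets -0.59. Rpl41 differed by -0.92 ± 0.25 (adjusted p = 0.348), Rps10 by -0.86 ± 0.22 (adjusted p = 0.348) and Rps4l (98149_s_at) by -1.06 ± 0.30 (adjusted p = 0.348). For Rpl13a the difference was -0.01 with a 95% interval of -0.58 to 0.57.

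Promoter windows of the RefSeq GRCm38.p6 annotation, from 250 bases before to 50 after an annotated start, were available for 26 of the 33 member genes (35 windows). The letters CCGGAAG, on either strand, the core that ETS factors such as GABPA bind, were in the windows of 11 of 26 member genes (42.3%), against 9.93% of 27025 genes. AAGATGGC on either strand, the YY1 letters, was found for 4 genes (15.4%), against 3.19%. A C followed by at least 4 pyrimidines within 5 bases of the start, on the sense strand, was found for 10 genes (38.5%), against 17.9% of all genes. Windows of one gene were counted once, the letters of CCGGAAG on the other strand can overlap a pyrimidine run, and a match is a description of the sequence. Parts of the windows of Rps18, Rps10 and Rpl41, the bright members described above for set B, and of Rpl13a, the member called higher in both tumor sets, are printed 5′ to 3′ on the strand of the gene; capitals mark CCGGAAG in the first 3 and the pyrimidine run at the start in Rpl13a.
Rps18 (minus strand, chr17:33955651-33955832): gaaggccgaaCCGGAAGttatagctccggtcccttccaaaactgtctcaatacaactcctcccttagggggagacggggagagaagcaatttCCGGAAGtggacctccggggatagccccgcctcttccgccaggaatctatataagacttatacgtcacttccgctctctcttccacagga
Rps10 (minus strand, chr17:27635230-27635364): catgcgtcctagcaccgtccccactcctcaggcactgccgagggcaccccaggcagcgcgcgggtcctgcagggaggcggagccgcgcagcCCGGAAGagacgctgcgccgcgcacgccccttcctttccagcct
Rpl41 (minus strand, chr10:128549154-128549288): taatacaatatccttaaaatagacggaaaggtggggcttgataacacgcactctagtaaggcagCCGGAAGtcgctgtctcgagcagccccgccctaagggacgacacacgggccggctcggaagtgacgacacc
Rpl13a (minus strand, chr7:45128731-45128865): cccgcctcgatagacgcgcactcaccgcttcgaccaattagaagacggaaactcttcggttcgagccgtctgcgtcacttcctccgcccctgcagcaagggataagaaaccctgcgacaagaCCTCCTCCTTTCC

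The other genes of the translation machinery were read from 5 lists, 1 probe set per gene, where 15.8% of all 6397 genes were higher and 14.7% lower in Tumor than in AMWT. Elongation factors and other TOP transcripts had 2 of 15 higher and none lower in Tumor (median 0.16): Eef2, which moves the ribosome along the message, at 0.78 ± 0.23 (adjusted p = 0.0190), and Naca, of the nascent-chain complex, at 0.98 ± 0.27 (adjusted p = 0.0113). Initiation factors had 4 of 27 higher, among them the helicase Eif4a1 (0.78 ± 0.22) and the eIF3 subunits Eif3j1 (0.91 ± 0.29) and Eif3m (0.77 ± 0.22), and 1 lower, Eif3d (-0.51 ± 0.18). Ribosome biogenesis genes had 2 of 44 higher, Polr2e, a subunit shared by the nuclear RNA polymerases (0.93 ± 0.21), and Nop58, a core protein of box C/D particles that modify ribosomal RNA (0.83 ± 0.28), and none lower.

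The mTOR and S6 kinase list, whose products control TOP mRNA translation, had 1 of 12 higher and 3 lower in Tumor than in AMWT. Eif4ebp1, the eIF4E-binding repressor of cap-dependent translation, was 1221 on average in Tumor and 3681 in AMWT (-1.59 ± 0.28, adjusted p = 0.000419). Akt2 fell by 2.14 ± 0.41 on the log2 scale (adjusted p = 0.00101) and Rps6kb2, the second S6 kinase, by 1.97 ± 0.57 (adjusted p = 0.0158), while Ddit4, an inhibitor of mTOR complex 1, rose by 1.02 ± 0.32 (adjusted p = 0.0258). Mitochondrial ribosomal proteins, which build the separate ribosome of mitochondria, had 1 of 59 higher (Mrpl54, 0.96 ± 0.31) and 5 lower, such as Mrps36 (-0.77 ± 0.26) and Mrpl12 (-0.77 ± 0.26), with a median of -0.14.

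In AdjacentNeu against AMWT none of the genes on the 5 lists was called by limma. Over all genes 0.782% were called higher and 0.469% lower. An unadjusted p under 0.05 was reached by 1 of 15 elongation or TOP genes and 2 of 27 initiation factors. It was reached by 0 of 44 biogenesis genes, 2 of 12 mTOR genes and 3 of 59 mitochondrial ribosomal proteins. Over all probe sets tested, 1273 of 8616 reached it. In Tumor against AdjacentNeu, where 5.75% of genes were higher and 9.29% lower, Polr2e (0.74 ± 0.19), Taf1b (0.99 ± 0.25), Eif3m (0.63 ± 0.20) and Mrpl13 (0.65 ± 0.20) were higher and Akt2 (-1.31 ± 0.38) and Eif4ebp1 (-0.84 ± 0.25) lower. In Tumor_setB against AMWT, where 11.3% were higher and 12.4% lower, Eif4ebp1 was again lower (-1.85 ± 0.35, adjusted p = 0.00119) and Eif3m higher (0.96 ± 0.27, adjusted p = 0.0182); both comparisons share the AMWT pools. Initiation factors had 3 of 27 higher and none lower in set B, biogenesis genes 2 of 44 higher and 1 lower, mTOR genes 1 of 12 higher and 3 lower, and mitochondrial ribosomal proteins 4 of 59 lower and none higher. The elongation and TOP list had 1 of 15 higher, Eif4b (0.71 ± 0.24, adjusted p = 0.0475), and 2 lower, with a median of 0.01. Of these, Eef1a1 (-1.01 ± 0.32, adjusted p = 0.0296) and Tpt1 (-0.86 ± 0.29, adjusted p = 0.0437) were lower in set B at the deposited scaling, with averages of 56250 and 55312 in Tumor_setB, against 112976 and 100475 in AMWT.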

How the data were processed

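The authors deposited 1 linear intensity per probe set and array; the sources used here do not give the software. All arrays had the same mean after trimming 2% from each end, so no further normalization was applied. Intensities under 101.4 (the 20th percentile) were set to that floor and log2 was taken. Neither controls nor dim probe sets entered the tests; each tested probe set exceeded its array's 40th percentile on 3 arrays or more. All 14 arrays entered 1 model with 4 groups in limma 3.58.1 (R 4.3.3; lmFit, eBayes with an intensity trend), with two-sided p-values adjusted by Benjamini and Hochberg over 8616 probe sets within each of 5 comparisons. The scripts were tested on simulated data. Lot entered as a block only in alternatives, alongside other scalings, floors, filters and left-out arrays. Probe sets were named through the platform table (10855 with 1 gene), with 10839 symbols checked by gene number, and a gene was read from its brightest probe set.

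Members, lists and tests were chosen with earlier results of these data known. Genes were named by rule: those called in a comparison with the largest changes, or the 4 smallest p where none was called; the 6 widest and 4 narrowest SDs; stalk proteins, Rpsa and paralogs by role; and called genes of the other lists. Rps4x, Rps19, Rps24, Rpl7 and untested genes were named for context after their values were seen. The number of arrays limits the precision.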

Additional observations from a re-analysis of the deposited data

Results flagged for a closer look

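Control probe sets for 18S ribosomal RNA, which no comparison used, read higher on some arrays than in the wild-type pools. The 3′ set was highest on Tumor 22 at 4551, against at most 400.1 in AMWT, and spanned 860.7 to 4551 in Tumor, 393.4 to 645.5 in Tumor_setB and 366.3 to 3151 in AdjacentNeu. The 5′ set was highest on Tumor 50 at 26397, against at most 198 in AMWT, and the middle set on Tumor 22 at 1229, against at most 59.2. On Tumor 50 the 3′ and middle sets read 860.7 and 495.7. Gaps within a group were checked on the log2 scale for the tested genes named by the rule, in Tumor and AdjacentNeu (32 groups of values), and none was wide enough to be marked, where chance marks about 5%. The 18S control values were not part of that check.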

How the results depend on the processing

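No paired analysis was possible because the labels give no replicate number to more than 1 group and do not tie a tumor to an adjacent gland. Members called in Tumor against AMWT (2 higher, 1 lower) were 4 higher and 2 lower after quantile normalization, 2 lower with median scaling and 1 higher with no filter. With lot as a fixed block they were 0 higher and 0 lower with a median of 0.073, with lot 2004097 read as 2004907 in that block 0 higher, with lot as a random block 1 higher, and within these lots read as one (chosen after seeing the data) 0 higher. Both fixed blocks and the fit within lots rest on AMWT 40 alone on the wild-type side. With suffixes _at or _i_at alone they were 1 higher and 0 lower, and with probe sets of several genes (also chosen after seeing the data) 6 higher. In AdjacentNeu against AMWT the median was -0.021 with median scaling, which moved that of all probe sets to -0.10. In Tumor against AdjacentNeu, 1 member was lower with lot as a fixed block, within lot 2001815 and with suffixes _at or _i_at alone. In Tumor_setB against AMWT, quantile normalization gave 1 lower and a median of 0.035, median scaling 3 lower, no filter 0 higher, the random block 0 higher, suffixes _at or _i_at alone 2 lower and probe sets of several genes 9 lower. The median of Tumor_setB against Tumor was -0.090 after quantile normalization and -0.34 with median scaling, which moved all probe sets to 0.10. Leaving out 1 array at a time gave 1 to 2 higher, 1 to 2 lower and medians of 0.17 to 0.38 in Tumor against AMWT; medians of 0.0016 to 0.23 in AdjacentNeu against AMWT; 0 to 1 higher, 1 to 2 lower and medians of 0.02 to 0.19 in Tumor against AdjacentNeu; 0 to 1 higher, 1 to 5 lower and medians of -0.51 to -0.21 in Tumor_setB against AMWT; and medians of -0.73 to -0.40 in Tumor_setB against Tumor. Where an arm had 1 array, it was taken to vary like the other groups. No called gene reversed; the fixed lot block gave no value for set B, whose lot holds no other group. The cause of these changes was not tested.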
